A study of Mus musculus with 8 samples.

Results

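The 39 genes described here encode the actins, non-muscle and smooth muscle myosin chains, tropomyosins, actin-binding and crosslinking proteins, intermediate filament proteins and serum response factor regulators that build and control stress fibres in myofibroblasts. They were chosen by name, not by any measured value, and all 39 were found among the 54532 genes of the deposited table, with the myocardin-related factors under their older names Mkl1 and Mkl2. Of these, 38 passed the filter on low counts that left 14723 genes for testing. Actc1, the cardiac actin, did not pass, with 2, 1, 0 and 3 reads in TSP-4 plasmid libraries A to D and 4, 0, 0 and 3 reads in empty plasmid libraries A to D. The cells were C57BL/6 mouse cardiac fibroblasts at passage 2, transfected either with pAAV.CMV.SV40.THBS4-HA.SV40(polyA), which carries HA-tagged murine THBS4 (thrombospondin-4, TSP-4) and names CMV before the insert, or with pAAV-CA, the empty plasmid. After 12 h in standard medium all cells were deprived of serum for 24 h, then the poly(A) RNA was read in 4 libraries for each plasmid, with the letters A to D used in both groups. The plasmids are different constructs, so the comparison is between plasmids, with the Thbs4 insert as one of their differences. What the letters mark is not said in the labels, nor whether each library is a culture or an animal of its own; p-values therefore reflect only how these libraries varied, and that variation may be technical.

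Contractile force in fibroblasts comes from bundles of actin filaments along which bipolar filaments of non-muscle myosin II slide, with tropomyosins coating the actin and alpha-actinins, filamin and LIM-domain proteins tying the bundles together. A myofibroblast is known for adding smooth muscle alpha-actin (Acta2) to the cytoplasmic actins Actb and Actg1. Many of these genes are textbook targets of serum response factor (Srf), which binds the CArG box and is switched on by the coactivators Mkl1 and Mkl2 when monomeric actin is depleted, and by myocardin (Myocd) in muscle.

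The CArG box is shown first because it is the sequence that serum response factor reads. In the RefSeq promoter windows of the GRCm38.p6 assembly, 34 of the 39 members had an entry, and the 250 bases before the transcription start were searched for the box on both strands, allowing either weak base at each of its inner positions. A box was found for 7 of the 34 members (20.6%), against 439 of 27025 genes (1.62%) in the whole table. Many members are textbook targets of the factor and were chosen by name, so the choice of list favours a higher share, which is not a finding of these data. Shown are the 5 of these members that stood above 1 FPKM in every library, written 5′ to 3′ on the gene's strand with the box in capitals.
Actg1: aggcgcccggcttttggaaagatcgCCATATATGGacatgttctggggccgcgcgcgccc
Myl9: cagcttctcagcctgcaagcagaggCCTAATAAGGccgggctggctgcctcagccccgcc
Myl6: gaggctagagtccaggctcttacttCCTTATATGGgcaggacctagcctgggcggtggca
Cnn2: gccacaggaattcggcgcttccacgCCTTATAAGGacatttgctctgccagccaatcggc
Srf: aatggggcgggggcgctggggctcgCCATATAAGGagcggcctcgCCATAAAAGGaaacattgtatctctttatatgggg

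The Actg1 window is chr11:120348551-120348610 on the minus strand, with the box starting 90 bases before the start site. The Myl9 window is chr2:156775278-156775337 on the plus strand, with the box 161 bases before the start. The Myl6 window is chr10:128493025-128493084 on the minus strand, with the box 50 bases before a start that lies inside the span the deposited table gives for the gene. The Cnn2 window is chr10:79988519-79988578 on the plus strand, with the box 56 bases before the start. The Srf window, chr17:46556190-46556269 on the minus strand, held a pair of boxes, 82 and 62 bases before the start of the gene that encodes the factor itself. Boxes were also found before Acta1 and Actc1, the skeletal and cardiac actins. A match is a description of these letters and says nothing of binding, and the 27 other members with an entry, Acta2 among them, had no match in this window. Actg2, Actb, Myh11, Tagln and Myocd had no entry.

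Total counts ran from 17123735 to 22530947 in TSP-4 plasmid libraries and from 17202402 to 21292609 in empty plasmid libraries, and the letter A library was the deepest in both groups. Thbs4 stood at 1718, 1469, 2164 and 1780 CPM (library-scaled counts, with TMM factors) in TSP-4 plasmid libraries A to D, against 0.0939, 0.648, 0.408 and 0.156 CPM in empty plasmid libraries A to D. All 9 cardiac fibroblast markers passed the filter on low counts, at very unequal levels. Col1a1 stood between 4677 and 6150 CPM with the TSP-4 plasmid, against between 4557 and 5775 CPM with the empty plasmid. Pdgfra stood between 45.9 and 94.7 CPM with the TSP-4 plasmid, against between 37.9 and 99.7 CPM with the empty plasmid. Lum stood between 1.57 and 11.2 CPM with the TSP-4 plasmid, against between 1.77 and 11.8 CPM with the empty plasmid. Of 12 cardiomyocyte markers 2 passed the filter, Tnnt2 and Ttn. Tnnt2 stood between 12.2 and 16.8 CPM with the TSP-4 plasmid, against between 11.1 and 15.7 CPM with the empty plasmid. Myh6, which did not pass, was at most at 0.118 CPM with the TSP-4 plasmid, against 0.0589 CPM with the empty plasmid. Macrophage markers were present in every library, and their values stand beside the results on the letters. In bulk RNA, fewer cells of a type and less RNA per cell cannot be told apart.

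Levels between genes were compared per gene length, on the deposited FPKM scale (reads scaled to gene length and library size). The cells transcribed the non-muscle and cytoplasmic part of the list at high level: 17 members averaged at least 100 FPKM over the 8 libraries, 15 lay between 1 and 100 FPKM and 7 lay under 1 FPKM. Actb, the cytoplasmic beta-actin, was highest at 804 to 1135 FPKM with the TSP-4 plasmid and 817 to 1078 FPKM with the empty plasmid. Vim, the intermediate filament protein of mesenchymal cells, Actg1 and Acta2 followed. On the deposited gene lengths Acta2 and Actg1 had no fixed order. The letter A libraries carried Acta2 above their own Actg1 levels, while the other libraries did not. That order rests on the deposited Acta2 length of 1781 bases, where GENCODE M21 gives 2196 exonic bases. A longer length would lower Acta2 FPKM, so the order in the letter A libraries is uncertain.

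The smooth muscle-type members were very unequal. Acta2 stood at 919, 485, 510 and 472 FPKM in TSP-4 plasmid libraries A to D, against 896, 429, 534 and 430 FPKM in empty plasmid libraries A to D. Tagln (transgelin, SM22-alpha) stood at only 2.64 to 4.18 FPKM with the TSP-4 plasmid and 2.51 to 3.88 FPKM with the empty plasmid, and Cnn1, the smooth muscle calponin, at 1.79 to 3.45 FPKM with the TSP-4 plasmid, against 1.98 to 3.77 FPKM with the empty plasmid. Acta2 was thus among the highest genes of the list, and Tagln and Cnn1 were near its lower end. Other contractile members lay between, such as Tpm1 at 136 FPKM and Myl9 at 88.4 FPKM, averaged over all libraries. The Tagln value is uncertain: 1349 of its 1988 exonic bases (67.9%) lie opposite exons of Gm48529 or Pcsk7 in GENCODE M21, and whether counting used strand is not given in the sources used here. Mylk (myosin light chain kinase), Myh11 (smooth muscle myosin heavy chain), Actg2 and Acta1 (enteric and skeletal actin), Des (desmin), Myocd and Actc1 made up the 7 members under 1 FPKM.

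**Figure D1:**
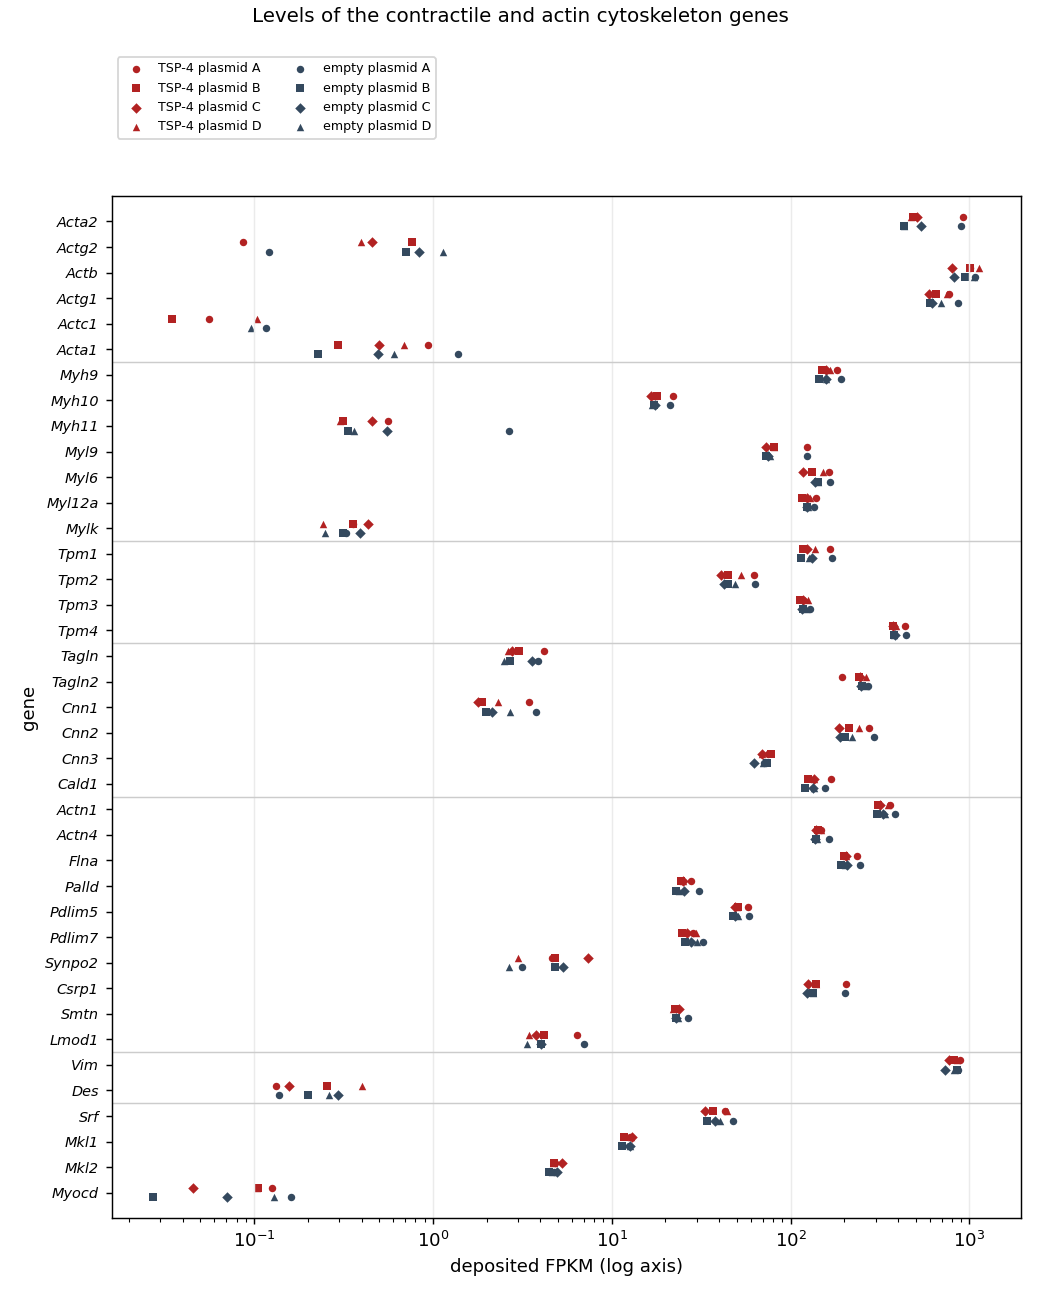
Deposited FPKM (log axis) of the 39 genes in each library, grouped by role, with TSP-4 plasmid points (red) above empty plasmid points (blue) and 1 marker shape per letter. Values of 0, which Actc1 had in 1 TSP-4 plasmid and 2 empty plasmid libraries, cannot be drawn on this axis; the highest gene, Actb, reached 1135 FPKM, while Tagln stayed at or below 4.18 FPKM.

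The comparison of the plasmids asked which of these genes differed in fibroblasts that overexpress TSP-4. In edgeR's quasi-likelihood test 0 of the 38 tested members passed the adjusted threshold of 0.05. Over all 14723 genes 1 passed (0.00679%), which was Thbs4, with a log2 fold change of 12.45 (SE 0.34). At an unadjusted p under 0.05 there were again 0 members, against 235 genes (1.60%). DESeq2 and limma voom also called 0 members. The groups of 4 overlapped in CPM for every tested member, while 223 genes (1.51%) had groups without overlap.

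The members' log2 fold changes had a median of -0.01, with 18 of 38 above 0, and the median over all genes was -0.00. They ran from -1.26 for Myh11 to 0.31 for Synpo2. The lowest p of a member was 0.114, for Myh11, and its adjusted p was 0.999968 in edgeR's test. For 29 of 38 members (76.3%) the 95% interval lay within a 1.5-fold difference in either direction, as it did for 70.5% of all genes. Mkl1 and Mkl2 were higher with the TSP-4 plasmid in 4 of 4 letters, and Myh11, Cnn1 and Pdlim7 were lower in 4 of 4. With so few letters, some genes keep a single direction without any difference between plasmids. The share of all genes that did so was not counted, so these directions are a description only.

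Libraries of the same letter deviated together across genes, so the letters were also fitted as a replicate block. With the block 2 genes passed the adjusted threshold (0.0136%) and again 0 members. At an unadjusted p under 0.05 the block gave 3 of 38 members (7.89%) beside 1196 of 14723 genes (8.12%), a share close to that of all genes. These 3 were Synpo2, with a log2 fold change of 0.30 (adjusted p = 0.478 in edgeR's test with the block), Actg2, with -0.73 (adjusted p = 0.587), and Pdlim7, with -0.09 (adjusted p = 0.612).

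**Figure D2:**
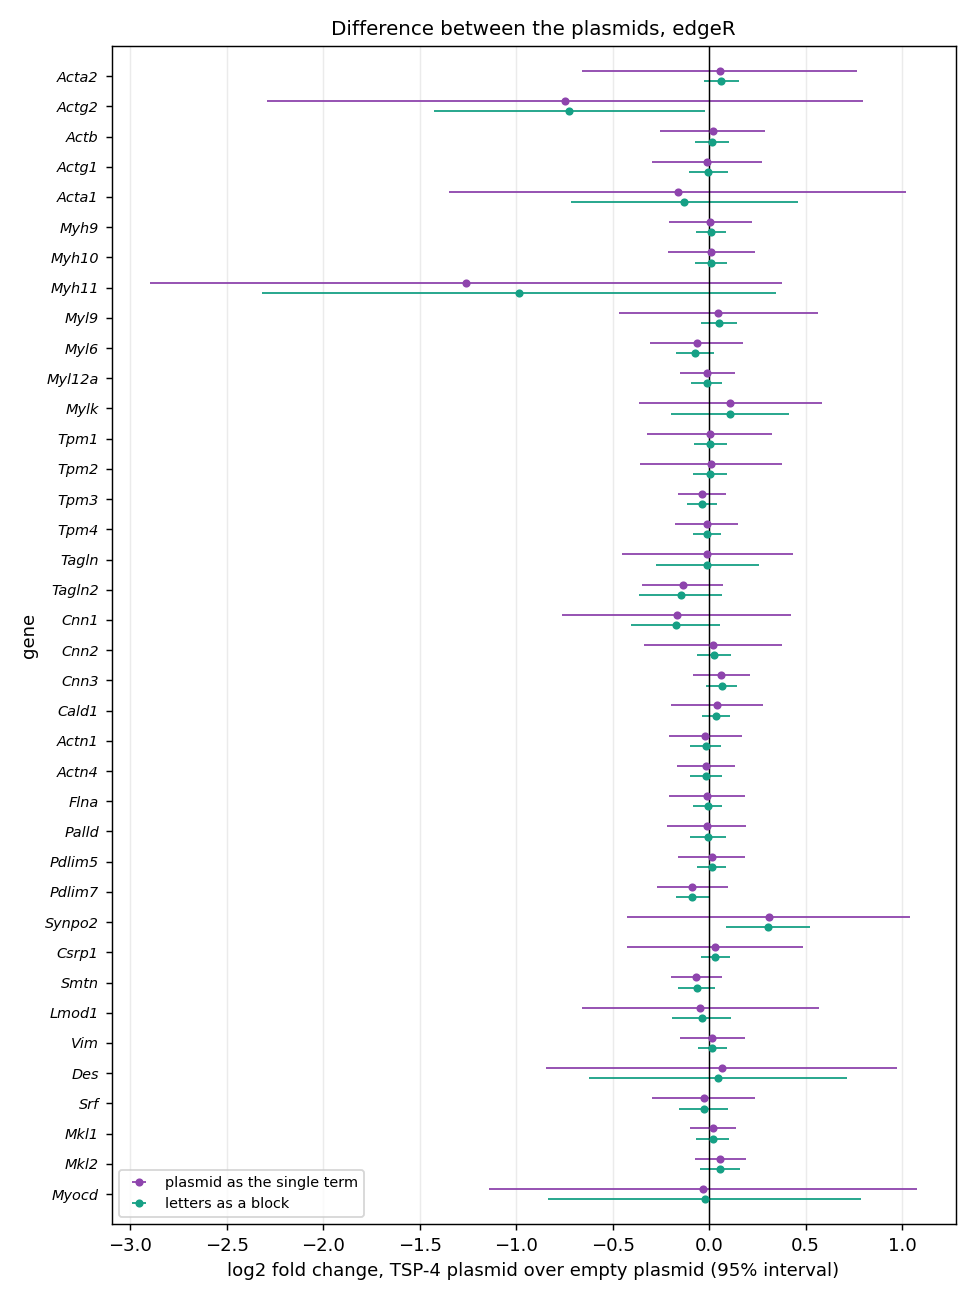
Log2 fold change of the 38 tested genes, TSP-4 plasmid over empty plasmid, from edgeR, with 95% intervals. Purple points come from the fit with the plasmid as the single term and green points from the fit with the letters as a block; all purple intervals include 0, and the green intervals of Synpo2, Actg2 and Pdlim7 do not.

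Among the actins, Acta2 (chr19:34241090-34255336, minus strand, GRCm38) is the gene most used to mark myofibroblasts. It stood at 1633, 869, 910 and 845 CPM in TSP-4 plasmid libraries A to D, against 1593, 773, 963 and 770 CPM in empty plasmid libraries A to D. Both groups held 1 high library, A, and 3 lower ones, and their ranges overlapped almost whole. The log2 fold change was 0.05 (SE 0.31) with a 95% interval from -0.66 to 0.77. The block, which sets each library against the one of the same letter, gave 0.06 with an interval from -0.03 to 0.15.

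Actb and Actg1, the cytoplasmic actins of all cells, showed the same overlap. Actb stood at 2689, 2732, 2157 and 3054 CPM with the TSP-4 plasmid, against 2882, 2553, 2216 and 2849 CPM with the empty plasmid (libraries A to D), with a log2 fold change of 0.02 (interval -0.25 to 0.29). Library C was the lowest in both groups and D or A the highest. Actg1 had a log2 fold change of -0.01 (interval -0.29 to 0.27), with the limit that 29.9% of its 100-base stretches occur in exons of 6 other genes.

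The muscle-type actins stayed at or below 1.44 CPM with the TSP-4 plasmid, against 2.11 CPM with the empty plasmid. Actg2 stood at 0.135, 1.20, 0.709 and 0.618 CPM with the TSP-4 plasmid, against 0.188, 1.12, 1.32 and 1.77 CPM with the empty plasmid (libraries A to D). The letter A libraries were lowest in both groups, the opposite of Acta2, and C and D were lower with the TSP-4 plasmid. Its log2 fold change of -0.75 had an interval from -2.29 to 0.80.

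The make-up of the actin pool was described as shares of the summed FPKM of the 6 actins. These shares use the deposited gene lengths, and the longer GENCODE M21 length of Acta2 would lower its share in every library. Acta2 took 34.1%, 22.5%, 26.7% and 20.0% in TSP-4 plasmid libraries A to D, against 31.5%, 21.7%, 27.1% and 19.7% in empty plasmid libraries A to D. The share followed the letter more than the plasmid, and averaged 25.8 ± 6.15% with the TSP-4 plasmid, against 25.02 ± 5.35% with the empty plasmid (SD over 4 libraries each). Actb took 37.3% to 48.2% with the TSP-4 plasmid and 37.9% to 48.5% with the empty plasmid, and Actg1 took 28.5% to 31.8% with the TSP-4 plasmid, against 30.5% to 31.8% with the empty plasmid. The other 3 actins each stayed at or below 0.0519%.

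**Figure D3:**
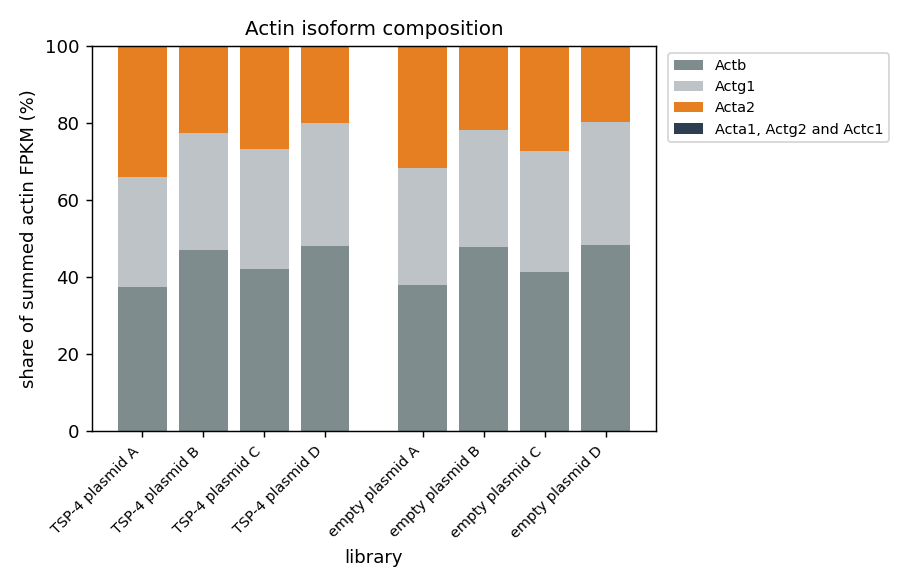
Share of each actin in the summed FPKM of the 6 actins (%), 1 stacked bar per library, TSP-4 plasmid on the left and empty plasmid on the right. Acta2 is largest in the A bar of both groups (34.1% with the TSP-4 plasmid, 31.5% with the empty plasmid); Acta1, Actg2 and Actc1 together are too thin to be seen.

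Myosin II was almost wholly of the non-muscle type. Myh9, the heavy chain of non-muscle myosin IIA, took 89.1% to 90.4% of the heavy chain FPKM with the TSP-4 plasmid and 88.9% to 90.2% with the empty plasmid. Myh10, the IIB heavy chain, made up nearly all the rest, and both had a log2 fold change of 0.01 (SE 0.10 each). Myh11 stood at 4.29, 2.40, 3.49 and 2.30 CPM in TSP-4 plasmid libraries A to D, against 20.2, 2.59, 4.28 and 2.76 CPM in empty plasmid libraries A to D. A single library, empty plasmid A, stood far above the other 7, and without it the log2 fold change was -0.04 in place of -1.26 (interval -2.90 to 0.38).

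The light chains stayed close between plasmids. Myl9, the regulatory light chain whose phosphorylation switches myosin II on, stood at 144, 94.8, 85.3 and 94.7 CPM with the TSP-4 plasmid, against 143, 85.2, 88.3 and 89.1 CPM with the empty plasmid (libraries A to D). As for Acta2, library A was alone at the top of both groups; the log2 fold change was 0.05 (interval -0.47 to 0.56). Myl6, the essential light chain, had a log2 fold change of -0.06 (interval -0.30 to 0.18), and Myl12a, a further regulatory chain, of -0.01 (interval -0.15 to 0.13). Of Myl12a, 16.3% of 100-base stretches are shared, mainly with its neighbour Myl12b. Mylk, which encodes the kinase of these chains, was at 0.243 to 0.435 FPKM with the TSP-4 plasmid and 0.249 to 0.393 FPKM with the empty plasmid, with a log2 fold change of 0.11 (interval -0.36 to 0.58).

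The 4 tropomyosins, which decide how myosin and cofilin reach the filament, had log2 fold changes from -0.04 for Tpm3 to 0.01 for Tpm2, and all 4 intervals lay within 1.5-fold. Tpm4 took 55.1% to 57.6% of tropomyosin FPKM with the TSP-4 plasmid and 54.8% to 57.7% with the empty plasmid. Tpm1 stood at 1082, 771, 807 and 891 CPM with the TSP-4 plasmid, against 1111, 748, 861 and 822 CPM with the empty plasmid (libraries A to D). Library A was again highest and B lowest in both groups.

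Of the transgelins, calponins and caldesmon, which bind along actin filaments, the forms that are not specific to smooth muscle prevailed. Cnn2 took 72.4% to 77.8% of calponin FPKM with the TSP-4 plasmid and 72.5% to 79.7% with the empty plasmid, and Cnn1 took at most 0.974% with the TSP-4 plasmid, against 1.03% with the empty plasmid. Cnn1 stood at 9.43, 5.19, 4.90 and 6.35 CPM with the TSP-4 plasmid, against 10.3, 5.48, 5.91 and 7.46 CPM with the empty plasmid (libraries A to D). Cnn1 was lower with the TSP-4 plasmid in each letter, yet the groups overlapped and the log2 fold change of -0.17 had an interval from -0.76 to 0.43. Tagln2 stood at 401, 508, 511 and 555 CPM with the TSP-4 plasmid, against 561, 530, 525 and 553 CPM with the empty plasmid (libraries A to D). The lowest value was TSP-4 plasmid A, and the log2 fold change was -0.14 (interval -0.35 to 0.07). Tagln, Cnn2, Cnn3 and Cald1 had log2 fold changes from -0.01 to 0.06.

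Of the 10 crosslinkers and scaffolds, 8 had intervals within 1.5-fold; Synpo2 and Lmod1 did not. Synpo2 (synaptopodin 2, a Z-disc and stress fibre protein) stood at 61.0, 63.7, 97.6 and 39.6 CPM with the TSP-4 plasmid, against 41.1, 63.9, 71.3 and 35.1 CPM with the empty plasmid (libraries A to D). Synpo2 was higher with the TSP-4 plasmid in A, C and D and level in B, and the groups overlapped. Pdlim7, a LIM-domain protein of alpha-actinin bundles, stood at 139, 121, 128 and 145 CPM with the TSP-4 plasmid, against 157, 126, 136 and 146 CPM with the empty plasmid (libraries A to D). All 4 differences were downward and small. Actn1 and Actn4 (alpha-actinins), Flna (filamin A), Palld (palladin) and Pdlim5 had log2 fold changes from -0.02 to 0.01, Csrp1 of 0.03, Smtn (smoothelin) of -0.07 and Lmod1 (leiomodin 1, an actin filament nucleator of smooth muscle) of -0.04.

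Of the intermediate filament genes, Vim had a log2 fold change of 0.02 (interval -0.15 to 0.19), and Des, at 0.132 to 0.402 FPKM with the TSP-4 plasmid and 0.138 to 0.295 FPKM with the empty plasmid, of 0.06 (interval -0.85 to 0.97). Of Srf and its coactivators, Mkl1 gave the narrowest interval of the 38 genes. It stood at 77.0, 72.4, 80.0 and 78.8 CPM with the TSP-4 plasmid, against 76.5, 71.0, 78.7 and 78.1 CPM with the empty plasmid (libraries A to D). Neither the plasmid nor the letter moved it far: its log2 fold change was 0.02 (interval -0.10 to 0.14). Mkl2 gave 0.06 (interval -0.08 to 0.19) and Srf -0.03 (interval -0.30 to 0.24), while Myocd, at or below 0.161 FPKM, gave -0.03 with an interval from -1.14 to 1.08.

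The letters separated these genes far more than the plasmids did. With the plasmid kept in the model, 26 of 38 members (68.4%) differed between the 4 letters at an adjusted p under 0.05 in edgeR's test, beside 4134 of 14723 genes (28.1%). To set the members beside genes of a like level, the same was counted among genes averaging at least 100 CPM: 21 of 26 such members (80.8%) beside 1005 of 2230 genes (45.1%). Of the 26 called members, 22 had their highest letter mean in A, 2 in B (Actg2 and Cnn3), 1 in C (Synpo2) and 1 in D (Actb). Both letter A libraries lay above the other 6 for 24 of 38 members (63.2%), as they did for 8.80% of all genes, and below the other 6 for Actg2 and Des (5.26%), as for 11.7% of all genes.

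Acta2 had the lowest adjusted p of the list between letters (8.6e-08 in edgeR's test), with a range of letter means of 1.00 on the log2 scale. Csrp1 (cysteine and glycine-rich protein 1, a LIM protein of actin bundles) stood at 400, 275, 245 and 272 CPM with the TSP-4 plasmid, against 395, 264, 246 and 261 CPM with the empty plasmid (libraries A to D). Lmod1 stood at 25.1, 16.7, 15.0 and 13.7 CPM with the TSP-4 plasmid, against 27.4, 16.03, 15.99 and 13.3 CPM with the empty plasmid (libraries A to D). In these genes each A library lay above every other library. With both letter A libraries left out, Acta2 was still called between letters B to D, and Csrp1 and Lmod1 were not. Cnn2 stood at 677, 526, 461 and 594 CPM with the TSP-4 plasmid, against 717, 499, 471 and 542 CPM with the empty plasmid (libraries A to D), with D second to A. Called ranges ran from 0.20 (Tpm4) to 2.70 (Actg2) on the log2 scale, and 3 exceeded 2-fold.

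Srf differed between letters too, with 125, 108, 96.5 and 128 CPM with the TSP-4 plasmid, against 138, 99.8, 111 and 117 CPM with the empty plasmid (libraries A to D; adjusted p = 0.0122 in edgeR's test). Mkl1, Mkl2 and Myocd were among the 12 members not called between letters, with Myh11, Mylk, Myl12a, Tpm3, Tagln, Tagln2, Smtn, Actn4 and Des. Tagln missed the threshold narrowly (adjusted p = 0.0502). Among tested members with a promoter entry, all 6 with a CArG box and 18 of 27 without one were called between letters. These 6 are the 5 whose windows are printed above and Acta1. The same split was not made over all genes, of which 28.1% were called between letters. Whether a box goes with a difference between letters was not tested.

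The median range between letter means was 0.38 on the log2 scale for the members and 0.30 for all genes. The median difference between plasmids within a letter was 0.07 for the members and 0.12 for all genes, in absolute log2 units. These measures are unlike: the range is the highest minus the lowest letter mean, and the difference is a gene's median over the letters. A range tends to be the larger even where letters do not differ. In 33 of 38 members the range between letters was larger than the largest difference within a letter. The same was not counted over all genes, whose median range also exceeded their median difference, so it is not shown to be particular to the members.

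**Figure D4:**
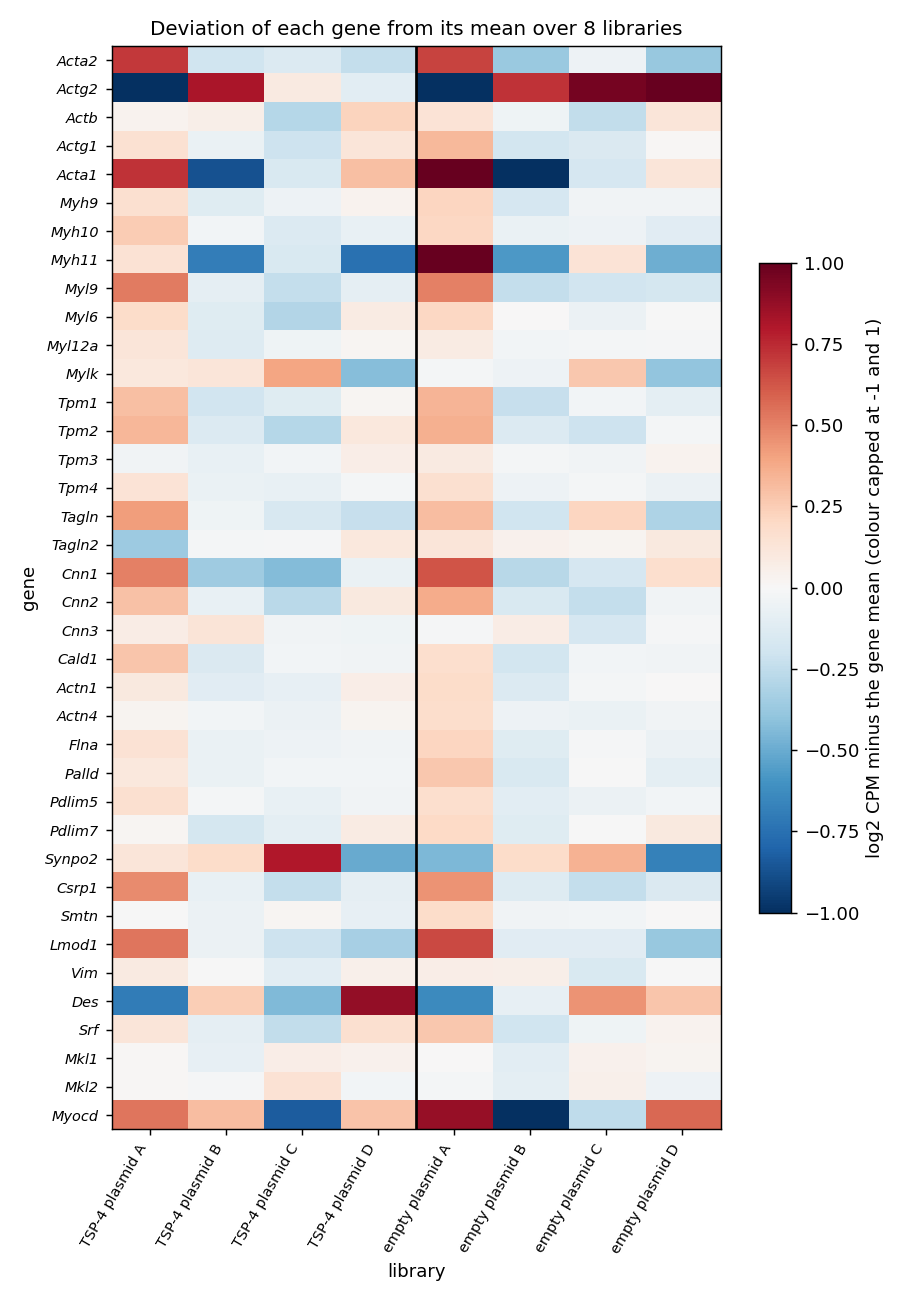
Deviation of log2 CPM from the gene's mean over the 8 libraries for the 38 tested genes (colour capped at -1 and 1), with the TSP-4 plasmid libraries left of the line and the empty plasmid libraries right of it. The A column is red in both groups for most genes, with Actg2 and Des blue in both groups, and the other columns are paler.

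Without both letter A libraries, a choice made after seeing the data, 13 of 38 members (34.2%) still differed between letters B to D, beside 3499 of 14730 genes (23.8%). Of these 13, 12 were among the 26, and they included Acta2, Actb, Actg1, Tpm1, Tpm2, Cnn2, Synpo2 and Srf. Leaving out 1 library at a time gave 23 to 28 members.

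Marker lists of other cells also moved with the letters. The summed CPM of 8 macrophage markers was 279, 682, 1562 and 693 in TSP-4 plasmid libraries A to D, against 306, 904, 1268 and 572 in empty plasmid libraries A to D. Library A was lowest and C highest in both groups, and all 8 markers were called between letters. The letter A libraries thus had the most Acta2 and the fewest macrophage marker counts. Letters B to D did not keep this inverse order. Among them C had the highest macrophage sum and also the highest Acta2, at 910 CPM (TSP-4 plasmid C) and 963 CPM (empty plasmid C). The 8 pericyte and smooth muscle markers summed to 365, 392, 357 and 316 CPM with the TSP-4 plasmid, against 350, 401, 321 and 313 CPM with the empty plasmid (libraries A to D). Most of this sum was Pdgfrb, which fibroblasts also express and which was highest in B. In the same list Mcam was called between letters (adjusted p = 0.00585 in edgeR's test) with its highest letter mean in A, at 12.0, 5.02, 8.10 and 12.2 CPM with the TSP-4 plasmid, against 21.6, 6.13, 7.39 and 11.3 CPM with the empty plasmid (libraries A to D). Pdgfrb and Rgs4 were called too, and Rgs4 had its highest letter mean in D. The 6 endothelial markers summed to 51.4, 35.7, 55.6 and 56.5 CPM with the TSP-4 plasmid, against 73.9, 34.9, 60.3 and 53.6 CPM with the empty plasmid (libraries A to D). Their sum was lowest in B in both groups and highest in A with the empty plasmid only. Emcn, an endothelial sialomucin of this list, had both letter A libraries above the other 6, at 23.3 CPM with the TSP-4 plasmid, against 33.8 CPM with the empty plasmid (adjusted p between letters = 9.5e-06 in edgeR's test). The other tested endothelial markers did not follow A. Pecam1 was also called (adjusted p = 0.000626 in edgeR's test), with its highest letter mean in C. Cdh5 and Tie1, highest in C, and Kdr, with both letter A libraries below the other 6, were not called. The 12 cardiomyocyte markers summed to 18.4, 14.2, 16.6 and 14.0 CPM with the TSP-4 plasmid, against 17.6, 13.1, 15.5 and 13.8 CPM with the empty plasmid (libraries A to D). As for Acta2, A was highest in both groups. Most of that sum was Tnnt2, which had both letter A libraries above the other 6 and was called between letters (adjusted p = 0.0117 in edgeR's test). Ttn, the other tested marker of this list, had its lowest letter mean in A and was not called (adjusted p = 0.295 in edgeR's test). No marker was at 0 in every library, and Kcnj8, a defining pericyte channel, was at 0 in 6 of 8. The 9 fibroblast markers summed to 8233 to 11248 CPM with the TSP-4 plasmid, against 8120 to 11638 CPM with the empty plasmid. Their sum, mostly Col1a1 and Col1a2, was lowest in D, and 7 of the 9 were called between letters. For Dcn both letter A libraries, with 145 CPM (TSP-4 plasmid) and 122 CPM (empty plasmid), lay below the other 6. Its adjusted p between letters was 2.3e-09 in edgeR's test. Pdgfra also had its lowest letter mean in A, while Col1a1 and Thy1 had their highest there. Tcf21, Lum and Col1a2 had their highest letter mean in B and their lowest in D. The part of these cell types, and of the greater depth of letter A, in the members' differences between letters was not tested.

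**Figure D5:**
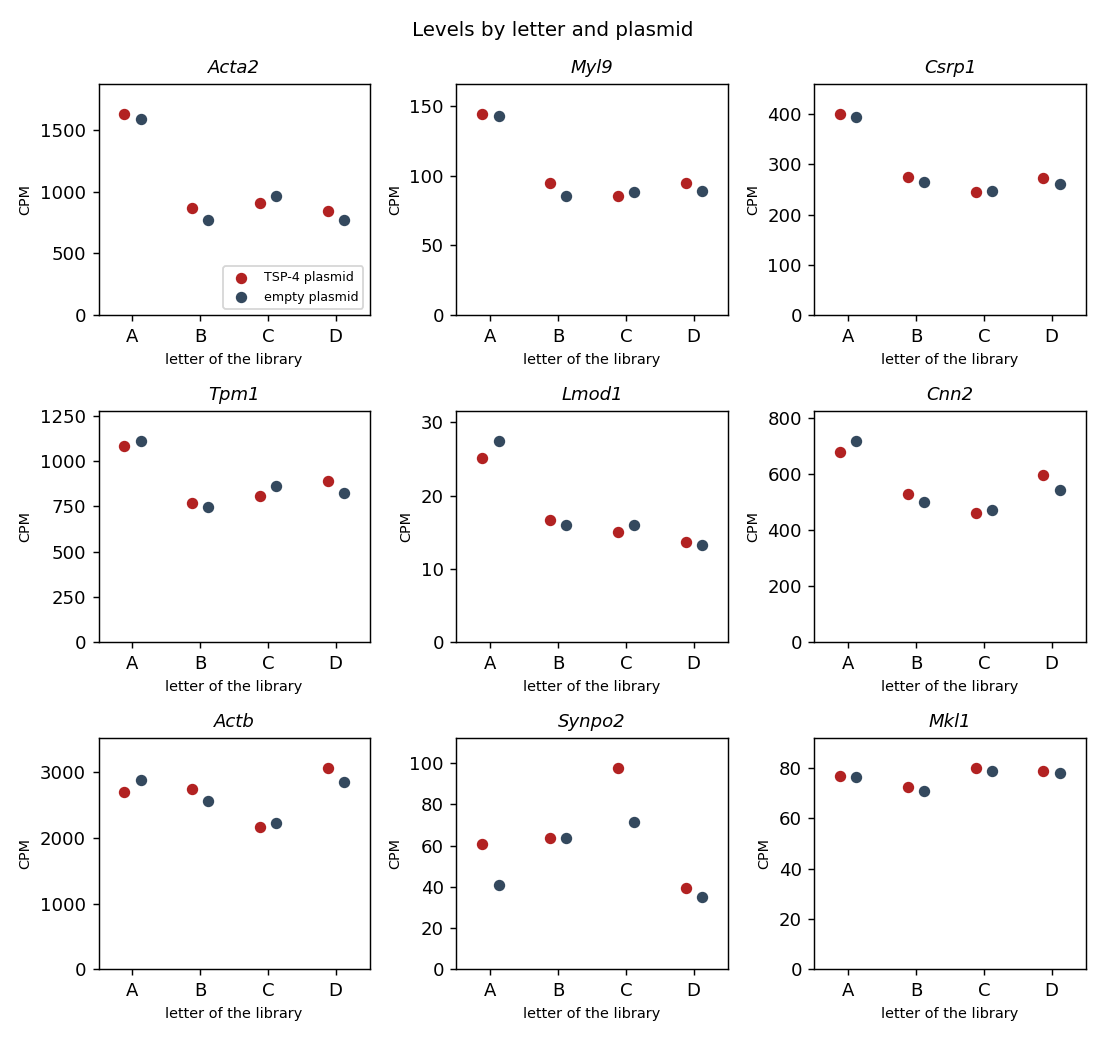
CPM of 9 genes by letter (horizontal axis) and plasmid (red, TSP-4; blue, empty), 1 point per library, axes from 0. Acta2, Myl9, Csrp1, Tpm1, Lmod1 and Cnn2 are highest in A with both plasmids, Actb is lowest in C, Synpo2 is highest in C, and Mkl1 stays between 71.0 and 80.0 CPM.

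The wider actin pathway outside the 39 genes was read from a pair of lists. Of 37 genes of actin turnover and its signalling, 0 passed the adjusted or the unadjusted threshold between plasmids, 11 had a log2 fold change above 0, and the median was -0.02. The smallest p belonged to Vasp, an actin filament elongator, at 123 ± 11.3 CPM with the TSP-4 plasmid, against 133 ± 5.10 CPM with the empty plasmid (SD over 4 libraries each), with a log2 fold change of -0.11 (SE 0.07). Rhob, a small GTPase of endosomes, gave -0.10, Arhgef2, a microtubule-bound exchange factor, -0.07, and Arpc4, a subunit of the Arp2/3 nucleator, -0.06. The most abundant, Cfl1 (cofilin, which severs filaments) and Pfn1 (profilin, which feeds monomers to filament ends), both gave -0.07. With the block 3 of the 37 reached an unadjusted p under 0.05, all lower with the TSP-4 plasmid, beside 8.12% of all genes. Between letters 16 of 37 (43.2%) were called, beside 28.1% of all genes. Most of the 37 averaged at least 100 CPM, and among all genes of that level the share was 45.1%, close to that of this list.

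Of 28 further stress fibre and SRF target genes, 0 passed the adjusted threshold between plasmids, 13 had a log2 fold change above 0, and the median was -0.01. At an unadjusted p under 0.05 there was 1, Tln2 (talin 2, which links integrins to actin), at 176 ± 12.1 CPM with the TSP-4 plasmid, against 160 ± 4.78 CPM with the empty plasmid (SD over 4 libraries each; adjusted p = 0.999968 in edgeR's test). Ablim1, an actin-binding LIM protein, gave a log2 fold change of 0.22 (SE 0.12), Synpo (synaptopodin) 0.12 and Myl12b 0.13, while the abundant Msn (moesin, which ties actin to the membrane) gave -0.07. With the block 5 genes of this list were higher and 1 lower at an unadjusted p under 0.05, beside 610 higher and 586 lower of all 14723 genes (8.12%), and 0 of the list passed the adjusted threshold. Between letters 19 of 28 (67.9%) were called, 12 of them highest in A, beside 28.1% of all genes and 45.1% of genes averaging at least 100 CPM. Most of the 28 were at that level.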

How the data were processed

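NEBNext Ultra was the kit for the poly(A) libraries, per the labels' protocols. Tools listed in the submitters' processing notes, with no role given, are HTSeq 0.6.1, TopHat2 2.0, CASAVA and Cufflinks 2.1.1, and the builds listed are GRCm38.p6 and mm10. For strand and for multiply mapped reads the setting is not given in the sources used here. Whole-number read counts per gene were taken as deposited. The FPKM values are the authors' own, deposited in a table of their own, and each equals count over gene length and library total times 1 constant per library. Gene lengths and coordinates were used as deposited. Reads of genes that overlap or share sequence may have been lost or assigned elsewhere.

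Counts were tested with edgeR 4.0.16 (robust quasi-likelihood, TMM factors, expression filter at a minimum count of 10) in R 4.3.3 on the whole table, with Benjamini-Hochberg adjustment over 14723 genes at 0.05. The letters were tested as 3 coefficients together, with the plasmid in the model. CPM use TMM factors. Ranges between letters and differences within letters use log2 CPM, with 0.5 added to each read count before scaling. Intervals cover 95% and include the spread between libraries. The tests were tried on simulated data first. DESeq2 1.42.0, limma 3.58.1 (voom), RLE factors, no filter, a replicate block and leaving out libraries were alternatives.

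By the data, though the labels do not say so, libraries pair by letter: deviations from the group means of same-letter libraries correlated across genes at 0.489 to 0.632, and those of different letters at -0.551 to 0.314. Pairs of libraries differed by a mean chi-square, per gene, of 4.88 to 12.4 for same-letter pairs and 10.3 to 37.4 within a group, so no library was counted as a repeat of another.

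The members and lists were chosen with earlier results of these data known. Named are all 39 members, Thbs4 and, in each of the pathway lists, the 4 genes with the smallest p between plasmids and the 2 with the highest mean CPM; 1 of these genes is not reported here. Promoter windows are RefSeq's for GRCm38.p6. Overlaps and shared 100-base stretches come from GENCODE M21, where 38 of 39 members had the deposited start and end. The exonic length there equalled the deposited one for 37 of 39, and not for Acta2 and Synpo2.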

Additional observations from a re-analysis of the deposited data

Results flagged for a closer look

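In 12 of 108 values examined in groups of 4, 1 library stood apart, with a gap to its nearest neighbour that, divided by the range of the 4, passed Dixon's 95% critical value. Chance flags about 5% of groups, and values of 1 library are not independent. All 12 are letter A libraries. With the TSP-4 plasmid the gap was 0.918 of the range for Acta2, 0.838 for Myl9, 0.868 for Flna and 0.897 for the total count. With the empty plasmid it was 0.904 for Myh11, 0.932 for Myl9, 0.892 for Myl12a, 0.856 for Tpm4, 0.870 for Actn4, 0.878 for Csrp1, 0.860 for Smtn and 0.831 for Arpc4. Library A was the highest of its group in each of these values.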

How the results depend on the processing

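No member was called between the plasmids under DESeq2, limma voom, RLE size factors, no expression filter, the replicate block, any 1 library left out or both letter A libraries left out. All 51 named genes with a fitted value kept the direction of their log2 fold change under DESeq2, RLE factors, no filter and the replicate block, and 48 under limma voom, where Tagln gave 0.00013, Des -0.019 and Myocd 0.13. The replicate block called 2 genes in all between the plasmids, against 1 without it, and 5 with both letter A libraries also left out, where the members' median was 0.022 and 0 members were called. Leaving out 1 library at a time moved the members' median from -0.061 to 0.068 (0.068 without empty plasmid A), and turned the direction in at least 1 setting for 29 of the 51 genes, none of them called; the cause was not tested. The lowest and highest log2 fold changes of these were Acta1 -0.47 to 0.45, Acta2 -0.23 to 0.35, Actb -0.055 to 0.11, Actg1 -0.071 to 0.11, Actn1 -0.067 to 0.042, Actn4 -0.042 to 0.041, Cald1 -0.053 to 0.11, Cnn1 -0.41 to 0.047, Cnn2 -0.079 to 0.16, Csrp1 -0.14 to 0.21, Des -0.32 to 0.28, Flna -0.061 to 0.066, Lmod1 -0.27 to 0.23, Mkl1 -0.013 to 0.047, Myh10 -0.079 to 0.089, Myh9 -0.047 to 0.086, Myl12a -0.055 to 0.028, Myl6 -0.14 to 0.019, Myl9 -0.15 to 0.26, Mylk -0.0051 to 0.25, Myocd -0.32 to 0.32, Palld -0.064 to 0.083, Pdlim5 -0.039 to 0.073, Srf -0.096 to 0.064, Tagln -0.17 to 0.10, Tpm1 -0.11 to 0.13, Tpm2 -0.11 to 0.14, Tpm4 -0.062 to 0.040 and Vim -0.030 to 0.059. Thbs4 ran from 12.11 to 12.96. DESeq2 called 2686 genes between letters, against 4134 by edgeR, and 25 members against 26; without letter A 13 members were called, in a fit with fewer samples, and with 1 library left out 23 to 28 members and 2782 to 4253 genes. Limma voom and RLE factors each called 26 members, and no filter 29. On simulated counts the test between letters made more false calls than its nominal rate, so these counts may be too high. The share of Acta2 among the actins was 25.4% by FPKM and 18.6% by CPM, which is not corrected for gene length. Genes near 1 CPM (Actg2, Acta1, Des, Myocd) had wide intervals, such as -2.29 to 0.80 for Actg2 and -0.85 to 0.97 for Des, so smaller differences were not detectable at this depth.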
